A study of Drosophila melanogaster with 3 samples.

Results

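The large-subunit cytosolic ribosomal protein genes were examined for peaks of the fly BTB-domain protein BtbVII in whole embryos. The members were all protein-coding genes of the BDGP6 gene models whose name starts with RpL, written with a capital R, so that mitochondrial mRpL genes are left out. This gave 54 genes among 13968 protein-coding genes on the chromosome arms. Chromatin immunoprecipitation and sequencing had been done with an antibody against GFP on the BtbVII-GFP strain, which stably expresses BtbVII with GFP fused to its C terminus. The embryos were of both sexes and 0 to 24 h old, and there were 3 biological replicates of this single group. Chromatin had been sheared by sonication to a labelled size range of 200 to 800, with no unit given. The labels give no second group, and samples were therefore not compared by group. The labels do not say at what level the tagged protein is made or whether the untagged gene is still present. Whole embryos mix many cell types, so binding in fewer cells and weaker binding per cell cannot be told apart. Region lists hold no expression values, so the stage of the embryos could not be checked against marker genes.

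Cytosolic ribosomal proteins are made in nearly equal amounts from single genes scattered over the genome, and these genes are among the most strongly transcribed in growing cells. In Drosophila many of them start at a polypyrimidine initiator called TCT instead of the usual initiator, and loss of 1 copy of many of them gives the Minute phenotype of slow growth and thin bristles. The large subunit carries the peptidyl transferase centre, the exit tunnel for the growing chain, the 5S RNA particle and the acidic stalk that recruits elongation factors. A few genes that carry an RpL name encode second copies of a subunit or, judged by their yeast relatives, factors that assemble the subunit and then leave it.

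The deposited lists on the dm6 build give a peak position, a summit and the signal value of the authors' peak caller for each region. The pooled list holds 30000 candidate regions, and 5219 of them form the set that passed the authors' reproducibility threshold. These strong peaks are the 5219 pooled regions of highest signal, with a lowest signal of 172.4. A gene was counted as having a candidate or a strong summit when one lay within 1000 bp of any of its transcription start sites (TSSs). Summit positions and distances of a gene are given relative to its nearest annotated TSS, with negative values upstream. Of the RpL genes with a strong summit, 22 have 2 or more TSSs. There the nearest TSS need not be the canonical start used for the sequences, and the sign can differ between them. Signal is given from the pooled list alone, lists were compared by rank within each, and rank 1 is the highest signal. Library depth is unknown, since the lists hold no counts of reads.

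The promoter sequences below show the start sites of 9 RpL genes, taken from the Release 6 genome from 120 bases before to 9 bases after the start base of the canonical transcript. Capitals mark CTTTT or CTTTC starting within 5 bases of the start base, a pyrimidine run like that of the TCT initiator but not always on the start base, TATCGATA, the site of the factor Dref (DRE), and GGTCACACT, the core of promoter motif 1, on either strand. In RpL27 the motif 1 core lies on the reverse strand. The first 6 belong to genes with a strong summit, which at RpL27, RpL37-1 and RpL8 lies just downstream of the bases shown, and the last 3 to genes without one.
RpL27, chr3R:25685042-25685171, minus strand: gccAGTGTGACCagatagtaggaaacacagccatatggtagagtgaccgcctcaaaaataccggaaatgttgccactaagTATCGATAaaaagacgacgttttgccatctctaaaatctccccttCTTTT
RpLP1, chr2L:419832-419961, plus strand: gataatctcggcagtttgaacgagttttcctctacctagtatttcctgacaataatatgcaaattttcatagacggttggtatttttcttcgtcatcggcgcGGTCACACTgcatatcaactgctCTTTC
RpL28, chr3L:3222949-3223078, minus strand: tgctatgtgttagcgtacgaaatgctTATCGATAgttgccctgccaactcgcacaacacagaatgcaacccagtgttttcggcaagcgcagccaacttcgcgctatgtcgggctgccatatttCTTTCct
RpL37-1, chrX:15139358-15139487, minus strand: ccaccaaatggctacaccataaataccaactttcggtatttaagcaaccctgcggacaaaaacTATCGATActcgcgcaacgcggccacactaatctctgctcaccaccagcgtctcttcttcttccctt
RpL14, chr3L:8600886-8601015, plus strand: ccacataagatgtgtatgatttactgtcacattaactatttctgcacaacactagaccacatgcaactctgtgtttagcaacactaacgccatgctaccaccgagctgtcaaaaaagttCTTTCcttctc
RpL8, chr3L:2587336-2587465, plus strand: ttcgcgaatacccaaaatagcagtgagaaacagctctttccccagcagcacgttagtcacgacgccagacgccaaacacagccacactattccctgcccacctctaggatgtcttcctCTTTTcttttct
RpL40, chr2L:4227579-4227708, plus strand: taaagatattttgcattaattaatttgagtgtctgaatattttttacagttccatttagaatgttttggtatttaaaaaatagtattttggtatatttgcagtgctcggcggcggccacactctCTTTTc
RpL24-like, chr3R:11431573-11431702, minus strand: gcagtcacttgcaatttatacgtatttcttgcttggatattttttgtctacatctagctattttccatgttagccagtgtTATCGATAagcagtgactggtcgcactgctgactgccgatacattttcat
RpL10Aa, chr3R:15037246-15037375, plus strand: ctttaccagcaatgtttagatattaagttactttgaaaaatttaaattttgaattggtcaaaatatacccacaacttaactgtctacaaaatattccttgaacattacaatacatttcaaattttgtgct

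Most RpL genes carried a strong BtbVII summit, and it lay almost on the TSS. A candidate summit was found at 48 of the 54 genes (88.9%), against 53.1% of all protein-coding genes. A strong summit was found at 43 of the 54 (79.6%), against 22.3% of all protein-coding genes. Of the genes with any candidate, 89.6% of the RpL genes had a strong one, against 42.1% of all protein-coding genes. The 43 genes had 43 different strong regions, though such a region can also count for a neighbouring gene outside the list. The 28 small-subunit genes with a strong summit likewise had 28. The 3076 other protein-coding genes with a strong summit had 2268. Lists of such unlike size cannot be compared by these counts. The list was chosen with earlier results of these data known, so these shares are descriptions and were given no test.

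**Figure D1:**
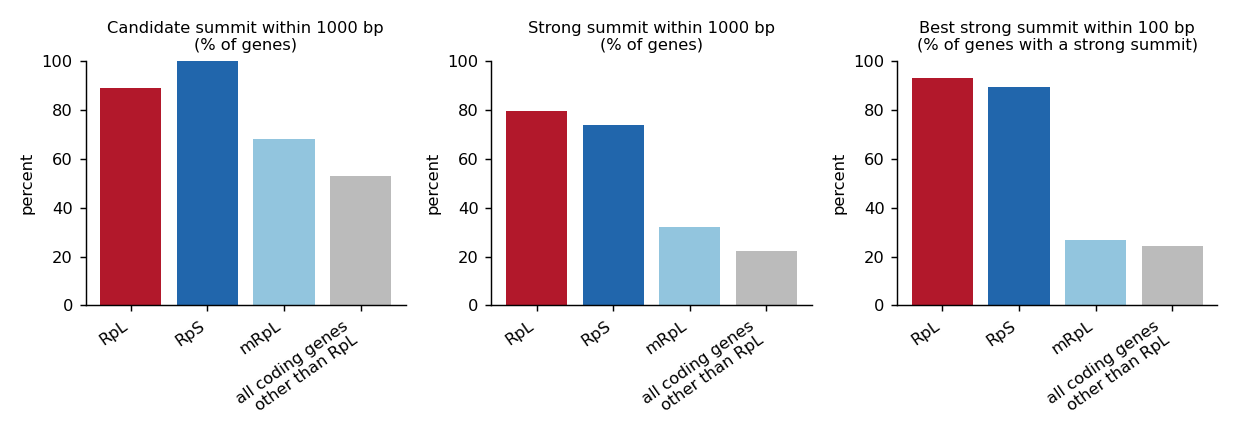
Share of genes (percent) with a candidate summit within 1000 bp of a TSS, with a strong summit there, and, among genes with a strong summit, with the best one within 100 bp, for RpL genes, RpS genes, mRpL genes and all protein-coding genes other than RpL. RpL genes stand at 88.9%, 79.6% and 93%, and the other coding genes at 52.9%, 22.1% and 24.5%.

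Genes of the small subunit, whose names start with RpS, had strong summits at a similar share, and mitochondrial large-subunit genes at a lower one. A strong summit was present at 43 of 54 RpL genes, at 28 of 38 RpS genes (73.7%) and at 15 of 47 mRpL genes (31.9%). All 38 RpS genes had a candidate, whereas 6 RpL genes had none. The median pooled rank of the best strong summit was 573 for RpL genes, 1176 for RpS genes and 3674 for mRpL genes, beside 2182.5 for all protein-coding genes other than RpL. A comparison list held 12 factors that help to make ribosomes without being part of them, called assembly factors here. It was not limited to factors of the large subunit. Of these 12, 6 had a strong summit, at a median distance of 175 bp from the TSS. Among them eIF6, which keeps the free large subunit from joining the small one, had a summit at rank 85 and −105 bp, and the nucleolar GTPase gene Ns2 one at rank 150 and −185 bp.

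At RpL genes the best summit lay closer to the TSS than at most genes with a strong summit. The best strong summit lay within 100 bp of a TSS at 40 of the 43 RpL genes (93%), against 25.5% of all protein-coding genes with a strong summit. It lay within 50 bp at 33 of them and within 25 bp at 19. The median distance was 27 bp for RpL genes (quartiles 13 and 48), 21 bp for RpS genes, 183 bp for mRpL genes and 192 bp for protein-coding genes other than RpL (quartiles 101 and 407.25). Relative to the TSS, with negative values upstream, the median position was −5 bp for RpL genes and −142 bp for the others. Of the 43 summits, 24 were upstream, 1 was on the start base and 18 were downstream, whereas 2307 of 3076 other genes had theirs upstream. A region near the starts of several genes counts for each of them, so the values for other genes include RpL summits. CG3776, for example, is counted at −118 bp with the summit of RpL19. The effect of such sharing on these values was not tested. In the separate replicate lists, the median position of the best region within 1000 bp of the same genes was −11.5 bp in replicate 1 (42 genes, without RpL38), −21 bp in replicate 2 (43 genes) and −5 bp in replicate 3 (43 genes), a mean of −12.5 ± 8.05 bp (SD, n = 3). When only the TSS of the canonical transcript was used, the median of the pooled summits was −21 bp.

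**Figure D2:**
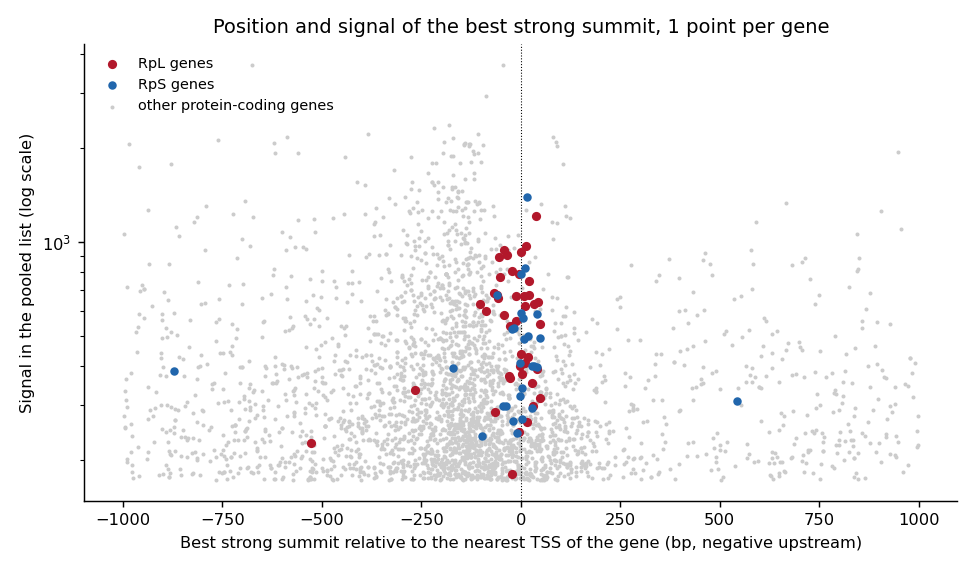
Position of the best strong summit relative to the nearest TSS (bp, negative upstream) against its signal in the pooled list (log scale), with 1 point per gene for RpL genes, RpS genes and other protein-coding genes. The RpL points form a narrow column at the TSS, 40 of 43 within 100 bp, while the grey points spread mainly over the upstream side.

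By annotation, 21 of the 43 best summits lay in the 5′ UTR of the RpL gene itself and 16 in intergenic sequence. The other 6 were in introns, 4 of the RpL gene itself and 2 of a neighbouring gene. A TSS of another protein-coding gene lay within 1000 bp of the summit at 30 of the 43 genes, and in all 30 the closest such neighbour was on the opposite strand. The RpL start was nevertheless the closer one at 42 of the 43 genes. No share over all protein-coding genes is given beside these counts, so they describe the RpL genes only. RpL13, for example, has a summit 5 bp from its own start and 79 bp from that of Dref, the gene for the DRE-binding factor. At RpL7 the distances were 38 bp to its own start and 68 bp to that of Ripalpha. The exception was RpL7-like, whose summit lay 527 bp upstream of its own start and 7 bp from the start of JhI-21, an amino acid transporter gene.

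Nearly all of these summits stood among the top regions of all 3 replicates, with most ranks highest in replicate 2. The best strong summit was among the 5219 highest regions of every replicate at 42 of the 43 RpL genes (97.7%), against 62.4% of all protein-coding genes with a strong summit. The strong set comes from the list pooled over these replicates, so part of this support is built in. The median rank of the RpL summits was 794 in replicate 1, 429 in replicate 2 and 802 in replicate 3, a mean of 675 ± 213 (SD, n = 3). Over the protein-coding genes other than RpL the medians were 2300, 2120 and 2311 in replicates 1, 2 and 3. Of the 42 RpL summits listed in every replicate, 38 ranked higher in replicate 2 than in replicate 1 and 36 ranked higher in replicate 2 than in replicate 3. The scale and depth behind this were not tested.

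**Figure D3:**
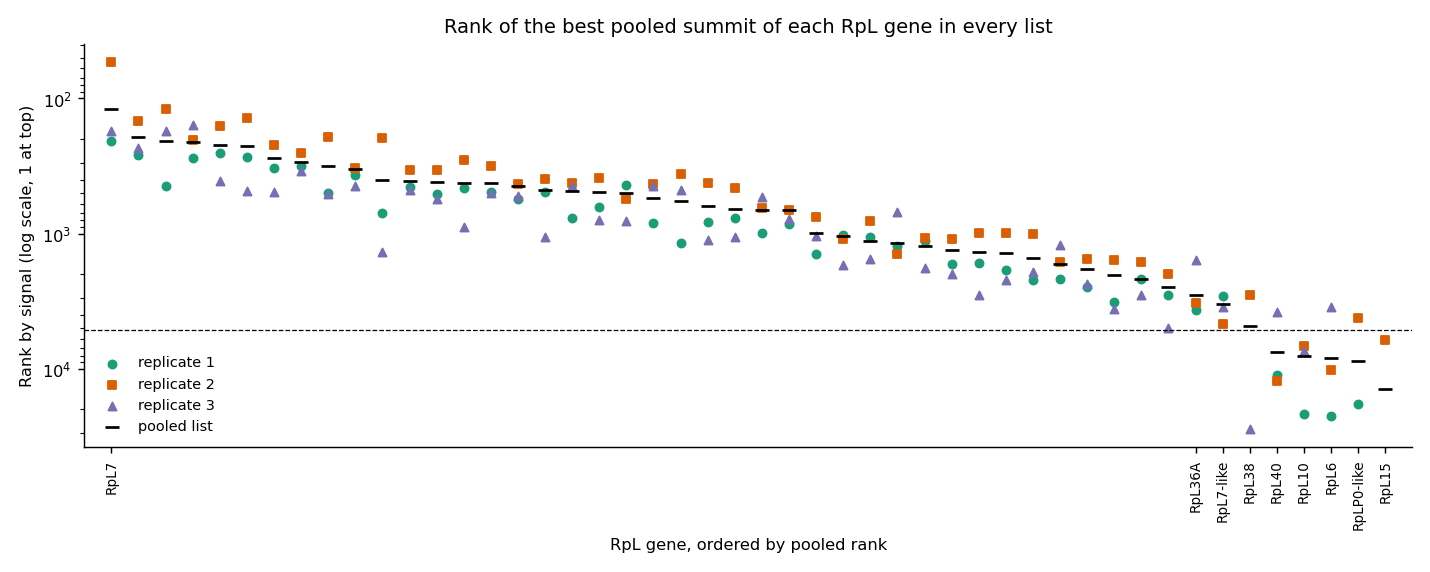
Rank by signal (log scale, 1 at the top) of the best pooled summit of each of the 48 RpL genes with a candidate, in the pooled list and in each replicate list, with genes ordered by pooled rank. Names are given for the highest gene, the 3 lowest with a strong summit and the 5 with a candidate only. The dashed line is rank 5219, the end of the strong set. RpL38 is the 1 gene above that line in the pooled list with a replicate below it, and a missing symbol means that no region of that replicate held the summit.

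The genes spread widely within the strong set. At pooled ranks 1 to 500 stood 20 of them, among them RpL7, RpL24, RpL14, RpLP0, RpL41, RpL30, RpL13, RpL13A, RpL31, RpL23A, RpL32, RpL27, RpL19, RpL11, RpL22, RpL3, RpL9, RpL34b and RpL8. Ranks 501 to 1500 held 14 genes, namely RpL34a, RpL28, RpLP1, RpL35A, RpL4, RpL17, RpL18, RpL27A, RpL37A, RpL39, RpL23, RpL12, RpL35 and RpL36. Lower ranks held 9, namely RpL7A, RpL10Ab, RpL29, RpL26, RpLP2, RpL37-1, RpL36A, RpL7-like and RpL38. In all, 31 of the 43 stood at ranks 1 to 1304 (72.1%), against 33% of the other protein-coding genes with a strong summit.

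The highest signal was at RpL7, a core protein of the subunit, with a pooled signal of 1206 and a pooled rank of 119. Its ranks were 207 in replicate 1, 54 in replicate 2 and 173 in replicate 3, so it stood near the top of each list. RpL24 (signal 967.3, 13 bp downstream of its nearest TSS, which is not the canonical start) had ranks of 263, 146 and 232 in replicates 1, 2 and 3. Both genes were high in all 3 lists, with replicate 2 the highest each time. RpL14 (signal 927.6) had its summit 1 bp from the start base shown above and ranked 277, 203 and 158. Its order differs, with replicate 3 the highest.

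The 4 stalk genes all had a strong summit. So did 79.6% of all RpL genes, so counts by role, here and below, do not single out a role. RpLP0, the core stalk protein, had a signal of 904.8 at −34 bp and ranked 254, 159 and 410 in replicates 1, 2 and 3. The acidic tip proteins were lower, RpLP1 with 558.2 at −11 bp (ranks 823, 424 and 1124) and RpLP2 with 285.4 at −65 bp (ranks 2170, 1624 and 2872). RpL12, at the base of the stalk, had 376.8 at 3 bp and ranked 1692, 1089 and 1982. The 4 genes kept the same order in every replicate, with RpLP0 first, RpLP1 next and RpLP2 last.

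Around the catalytic centre and the tunnel, 5 of 6 genes had a strong summit, beside 79.6% of all RpL genes. RpL3, which reaches towards the peptidyl transferase centre, had a signal of 640.4 at 44 bp and ranked 489, 398 and 1063 in replicates 1, 2 and 3. RpL8, another protein near that centre, had 623.5 at 10 bp (ranks 434, 557 and 802). RpL4, which lines the tunnel, had 538.3 at −26 bp (ranks 998, 642 and 535). These 3 stood close together in the pooled list, and their order changed from replicate to replicate. RpL17 had a signal of 536.9 at −22 bp and RpL39, a small protein inside the tunnel, 398.6 at −2 bp. RpL10, which is loaded last and completes the centre, was the exception, with a candidate of signal 131.4 at 63 bp.

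The rim of the tunnel exit is where nascent chains meet the signal recognition particle. All 5 genes for proteins there had a strong summit, beside 79.6% of all RpL genes. The signals were 747.2 at RpL31, 685.9 at RpL23A, 669.1 at RpL19, 371.3 at RpL35 and 297.6 at RpL26. RpL23A was also the gene with the widest spread of ranks among those listed in all replicates, at 700, 195 and 1377 in replicates 1, 2 and 3, a ratio of 7.06. RpL6 followed with 6.39, below the strong set, and RpL7 with 3.83. Of the 5S particle proteins, RpL11 had a signal of 668.3 at 8 bp (ranks 490, 316 and 501), while RpL5 had no candidate in the pooled list. Replicate 2 alone had a region at RpL5, 44 bp from a TSS and at rank 4301, within its top 5219.

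The lowest signals among the strong summits were those of RpL38 (signal 179.8), RpL7-like (227.3) and RpL36A (246.2). RpL38 was held by replicate 2 at rank 2873 and by replicate 3 at rank 27914, and no region of replicate 1 contained it. Of the RpL genes with a candidate only, the highest was RpL40, with a signal of 137 at pooled rank 7533. RpL38 is the 1 gene of the 43 that rests on a single replicate. RpL36A ranked 3670, 3290 and 1559 in replicates 1, 2 and 3, within the top regions of all.

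A strong summit was missing at 11 of the 54 genes. Of the 9 genes on the list of second copies and RpL-named relatives, 4 had a strong summit, 1 had candidates only and 4 had none. Of the 45 other RpL genes, 39 had a strong summit, 4 had a candidate only and 2 had none.

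In 3 pairs of copies, 1 copy had the strong summit and the other had no candidate. RpL22 (signal 659.7, −58 bp) had one and RpL22-like, a copy best known from the germline, had no candidate. RpL10Ab (334.4, −266 bp) had one and RpL10Aa, shown above, had none. The RpL10Ab summit also lay 310 bp from the start of CG11597 on the opposite strand. Nearer its own start, at −29 bp, RpL10Ab had only a candidate of signal 141.3. RpL37-1 (265.4, 15 bp) had one and RpL37-2 none. RpL34a and RpL34b differed from this, since both had a strong summit at nearly the same level (599.9 at −88 bp and 630.5 at −102 bp). The sources used here do not say how reads shared by near-identical copies were placed.

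The assembly relatives differed from their ribosomal namesakes. RpL24 had the strong summit at its start, and RpL24-like, whose yeast relative is an assembly factor, had no candidate within 1000 bp. RpL7 had the highest signal of all members, and at RpL7-like, again related to a yeast assembly factor, the 1 strong summit was the one at the start of JhI-21. RpLP0-like had a best candidate of signal 123.8 at −600 bp, which lay closer to the start of 14-3-3zeta. With a window of 500 bp, RpL7-like kept only a candidate at rank 12654 and RpLP0-like one at rank 21221.

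The pooled list had no candidate at RpL21 or RpL24-like, but replicate 2 had regions there at ranks 17500 and 16180, and replicate 3 had one at RpL24-like at rank 23823. RpL10Aa, RpL22-like and RpL37-2 had no region in any replicate list.

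The other genes without a strong summit were RpL5, RpL6, RpL10, RpL15, RpL21 and RpL40. RpL40 encodes ubiquitin fused to a ribosomal protein, and its best candidate (signal 137 at 82 bp) ranked 11174, 12291 and 3785 in replicates 1, 2 and 3. RpL6 had a candidate of 128.2 at 57 bp, in a coding exon, that ranked 22389, 10179 and 3505. Both stood among the top 5219 regions of replicate 3 and of no other replicate. RpL10 ranked 21564, 6771 and 7377, outside those regions in each list. RpL15 had a candidate of signal 89.32, 8 bp from a TSS, that replicate 2 held at rank 6121 and the others did not hold.

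RpL5, RpL10, RpL15, RpL21 and RpL38 shared their surroundings. Leaving out candidates within 1000 bp of the gene itself, each had 0 candidate summits within 50 kb of its TSS, while the other 49 RpL genes had 8 to 57 with a median of 27. Such surroundings were found at 1.71% of all protein-coding genes, 239 in number, of which RpL38 alone had a strong summit. These surroundings were singled out after the values were seen, so this is a description. From the centromere end of their arm they lie at 0.977 Mb (RpL5), 5.01 Mb (RpL10), 0.843 Mb (RpL15), 1.27 Mb (RpL21) and 4.52 Mb (RpL38). On 2L, 3L and 2R they were the RpL genes nearest to that end. The next were RpL30 at 4.5 Mb on 2L, RpLP0 at 6.03 Mb on 3L and RpL31 at 9.59 Mb on 2R. Between arms the distances overlap, since RpL30 lies nearer than RpL10 and RpL38 and had a strong summit and 48 candidates within 50 kb. The part of this distance in the low signal was not tested. Repeats, as masked in the genome file, covered 30.2% to 41.3% of the 100 kb around these 5 genes. Around the other RpL genes they covered 7.13% to 22.5%. The sources used here do not say what was done with reads that fall in repeats, and the part of repeats in the low signal was not tested. Without these 5 genes, 42 of 49 RpL genes had a strong summit.

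**Figure D4:**
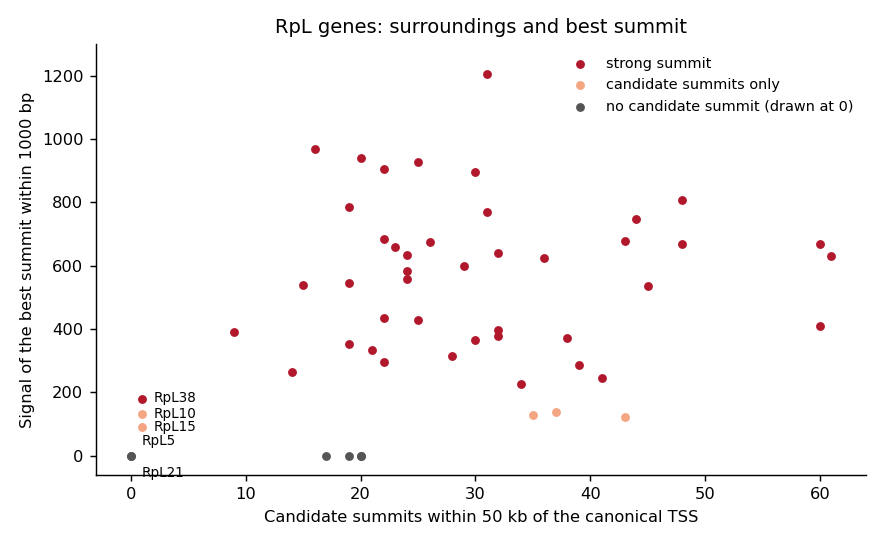
Candidate summits within 50 kb of the canonical TSS against the signal of the best summit within 1000 bp, with 1 point per RpL gene, coloured by whether that summit was strong, a candidate only or absent (drawn at 0). The 5 named genes sit at 0 or 1 candidates on the left with signals of 179.8 or less, and the other genes lacking a strong summit lie at 17 or more candidates.

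Pyrimidine runs stood at the start sites of many RpL genes. CTTTT or CTTTC started within 5 bases of the canonical start at 24 of 54 RpL genes (44.4%), at 44.7% of RpS genes and at 2.13% of mRpL genes, against 3.52% of all protein-coding genes. The run never began on the start base itself: it began within 1 base of it at 3 of the 24 and 2 to 5 bases away at 21. When any annotated TSS counted, the shares were 61.1% of RpL genes (33 of 54) and 63.2% of RpS genes, against 5.13% of all protein-coding genes. Among genes with a strong summit, 29 of 43 RpL genes (67.4%) had the run at some TSS, against 7.51% of the other protein-coding genes with a strong summit. Of the 20 bases from 5 before to 14 after the start base, a median of 75% were C or T at RpL genes and 50% at all protein-coding genes. The 30 bases around the start, from 20 before to 9 after the start base, show this at 5 more genes with strong summits, with the run in capitals.
RpL3, chr3R:11221874-11221903, plus strand: cgagacggaagtcggaatcgtttCTTTTcc
RpL4, chr3R:27922801-27922830, plus strand: ttggcagccatttccggcagctctCTTTCt
RpL9, chr2L:11004144-11004173, minus strand: acacagccacattaaatttcccttCTTTTc
RpL24, chr2L:13395083-13395112, minus strand: ttttcgtttccacttccgttttCTTTTctt
RpL30, chr2L:19009228-19009257, minus strand: tacccatttccgcctgttcttcctCTTTCt

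The run was not limited to bound genes, since RpL40 and RpL21 carry it without a strong summit and RpLP0, RpL11 and RpL22 had strong summits without it at the canonical start. The median pooled rank of the strong summits was 499 for the 21 RpL genes with the run at the canonical start and 664.5 for the 22 without it. A match of letters is a description of the sequence and does not show which factor is there.

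Of the other sequences searched from 250 bases before to 49 after the start base, on both strands, the DRE was the most frequent. TATCGATA was in 15 of 54 RpL promoters (27.8%), in 34.2% of RpS promoters and in 23.4% of mRpL promoters, against 8.94% of all protein-coding promoters. In RpL genes with a strong summit its centre lay a median of 48.5 bp from the summit. The search ran around the start, where most of these summits lie, so a short distance is in part built in. The 13 genes with a DRE and a strong summit had a median pooled rank of 1180. The 30 with a strong summit and no DRE had 495.5. The motif 1 core, bound by the factor M1BP, was in 6 RpL promoters (11.1%), against 5.86% of all protein-coding promoters. All 6 genes had a strong summit, but so did 79.6% of all RpL genes, so this count does not single them out. GAGAGA, the repeat recognised by GAGA factor, was in 3 RpL promoters (5.56%), against 12.6% of all protein-coding promoters and 17% of those of other genes with a strong summit. CATCTG, an E-box, was in 3 (5.56%), against 11.3% of all protein-coding promoters.

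CACGTG, the E-box recognised by Myc with its partner Max, was in 11 of 54 RpL promoters (20.4%), in 0 of 38 RpS promoters and in 6.38% of mRpL promoters, against 4.25% of all protein-coding promoters. In 8 of the 11 (14.8% of RpL genes) it started 12 to 43 bases downstream of the start base, and it lay downstream within the window at 198 protein-coding genes in all (1.42%). The assembly relatives RpL7-like, RpL24-like and RpLP0-like all had it there, at 31, 31 and 32 bases, and so did 8 of the 12 assembly factors. Of these 3 relatives, none had a strong summit at its own start. Among subunit genes, RpL7, RpL32, RpL34b and RpL35 had it downstream and a strong summit, and RpL6 had it without one.

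**Figure D5:**
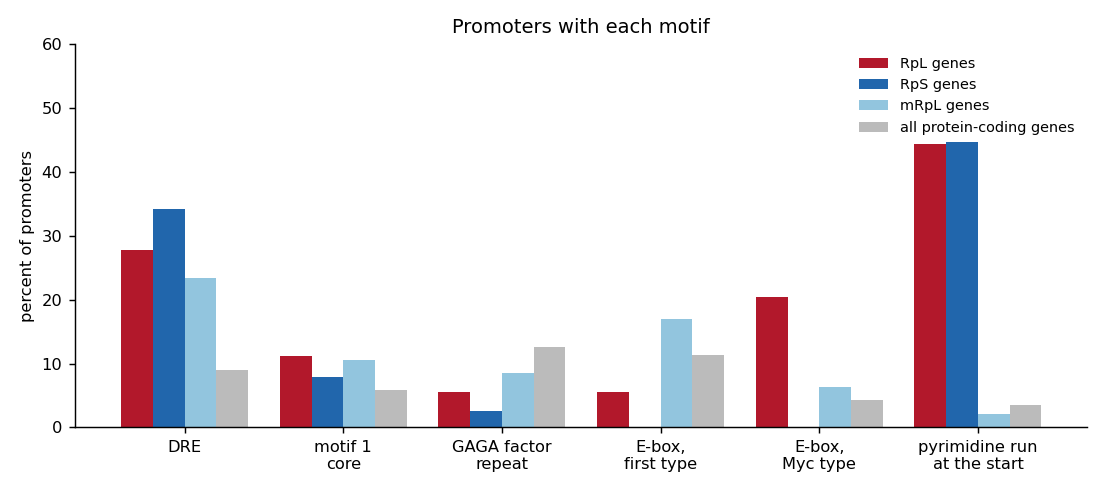
Percent of promoters with each sequence, for RpL, RpS, mRpL and all protein-coding genes. The pyrimidine run, CTTTT or CTTTC, is scored within 5 bases of the canonical start, at 0 RpL genes on the start base itself, and the others from 250 bases before to 49 after it. RpL and RpS genes stand together at 44.4% and 44.7% for the pyrimidine run and apart at 20.4% and 0% for the Myc type of E-box, CACGTG. The first type of E-box is CATCTG.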

How the data were processed

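The authors deposited region lists in narrowPeak layout, on dm6 and dm3, for ChIP-seq of BtbVII-GFP in 3 biological replicates. The dm3 lists were not used here. Per the README files deposited with the samples, the replicate and pooled lists are peaks and background prepared for the irreproducible discovery rate step, each derived from the alignments of its replicates and 1 further file whose kind is not stated there. The signal value of each region is the one deposited by the authors. The sources used here do not name its scale, the aligner, the peak caller or the thresholds. No reads were counted, so depth per library is unknown and gives no precision.

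Gene models were Ensembl release 115 (BDGP6.54) and the sequence was RefSeq Release 6. A region was placed by its summit, and coordinates count from 1. For each gene the strong or candidate summit of highest signal was taken, and a replicate's rank is that of its highest region holding this summit. Support means a rank of at most 5219. Motifs were searched with Python 3.11.15, using the canonical transcript or, where none is marked, the longest. The window and motif searches were checked on made-up positions and sequences, and all were recovered. Genes named are those of 5 highest and 3 lowest signal among strong ones, the 3 of most uneven rank, every gene without a strong summit, and lists by role, with other members named by rank or motif; 12 of 13 assembly factors matched a gene. Members and lists were chosen with earlier results of these data known. The 239 genes with no neighbouring candidates and the use of any TSS for the initiator were chosen after seeing the data. 1 of the genes that the rule names is not reported here. No tests were run.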

Additional observations from a re-analysis of the deposited data

How the results depend on the processing

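The count of RpL genes with a strong summit stayed between 40 and 43 under windows of 500 and 2000 bp, 1 TSS per gene, overlap instead of summits, only the strong peaks of higher signal (the upper 50%), support by all replicates, and leaving out each replicate. All protein-coding genes ranged from 13.1% to 27.8% under the alternatives for which they were counted. The count of genes with a candidate was 48 to 50. Leaving out a replicate meant asking for support by the other replicates, while regions and summits still came from the list pooled over all 3. The count of genes with a strong summit was then 42 and the median position −4.5 bp each time. These settings could therefore hardly move either value. Among the other settings, the median position moved beyond the spread between replicates only with 1 TSS per gene, to −21 bp. The best summits and their median rank of 573 were then unchanged, and only the start from which position was measured differed. The median of −5 bp therefore depends in part on the use of the nearest TSS. The median rank, taken as the mean over the remaining replicate lists, ran from 618.75 to 795.5 when a replicate was left out. Only the highest value, without replicate 2, lay beyond the spread between replicates. The main median of 573 comes from the pooled list, so these are unlike measures. Of the single genes, 13 values moved beyond their spread between replicates. Of these, 11 moved without replicate 2 and the others at RpL7-like and RpLP0-like with the 500 bp window. The 11 also set a pooled rank against a mean of replicate ranks, so part of the move can come from the measure. From 100 bases before to 49 after the start, GAGAGA was in 0 RpL promoters and CATCTG in 1, so their low counts carry little precision. Within 100 bp of the summit CACGTG was in 6 of 43 genes (14%), against 2.47% of other genes with a strong summit. Lists without counts give no limit on what a deeper library would show, and the candidates end where each list of 30000 ends.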

Other observations

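Of the 54 RpL genes, 16 hold snoRNA genes, whose products guide chemical changes of ribosomal RNA, within their own span and strand. A strong summit was present at 14 of these 16 and at 29 of the 38 others, beside 22.3% of all protein-coding genes. The 9 second copies and RpL-named relatives, 4 of them with a strong summit, all fall among the 38 others. Hosts outside the RpL genes were not counted, so these counts describe the RpL genes only. The median pooled rank of the strong summits was 523.5 for the hosts and 625 for the others.

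By arm, a strong summit was present at 10 of 13 RpL genes on 2L, 11 of 14 on 2R, 8 of 10 on 3L, 8 of 11 on 3R and 6 of 6 on X. The share of all protein-coding genes ran from 20.3% on X to 24.8% on 3L.

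The strong regions of RpL genes were narrow, with a median width of 247 bp, against 450 bp for all strong regions. Width moves with signal in this list, since 69.8% of the regions at ranks 1 to 1304 were narrower than 450 bp, against 20% of all strong regions. Within those ranks, 29 of 31 RpL regions (93.5%) were narrower than 450 bp, against 60.9% of 174 regions of other coding genes with a summit within 100 bp of a TSS.

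A second strong summit within 1000 bp of a TSS was present at 7 RpL genes, among them RpL3, RpL4, RpL26, RpL28, RpL32 and RpL34b. That is 16.3% of the RpL genes with a strong summit, against 21% of all protein-coding genes with one. At 5 of the 7 it lay 199 to 211 bp from the first. The smallest gap between any 2 pooled summits was 199 bp, and 25.3% of all gaps up to 1000 bp were of at most 220 bp, so this spacing is common in the list. At RpL34b the second, with 383.9, lay 846 bp downstream of a TSS.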
